A study of Mus musculus with 24 samples.

Results

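The genes described here encode the proteins of the cytosolic ribosome and the factors that start and extend translation. They were chosen by symbol from the gene table of the array: names of large and small subunit ribosomal proteins (Rpl, Rps, Rplp, Rpsa) and of initiation and elongation factors (Eif, Eef), without pseudogenes, the eIF2α kinases and the 4E-binding proteins. The rule gave 75 of 8251 genes. These were 17 proteins of the 40S subunit, 16 of the 60S subunit, 34 genes named as initiation factors and 8 named as elongation factors. Of the 75 genes, 61 passed the filter on low signal and were tested: 13 of the 40S, 12 of the 60S, 29 initiation factor genes and 7 elongation factor genes. The other 14 did not pass: Rps14, Rps15, Rps20, Rps27l, Rpl32, Rpl35a, Rpl38, Rpl39, Eif2s3y, Eif4e, Eif4enif1, Eif4h, Eif5a and Eef1g. The symbols Rps6, Eif1, Eif2s1 and Eif4g1 were not among the 75.

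RNA came from primary mouse embryonic fibroblasts, at passage 3 where the labels give one, that were wild type or CHOP-/-, lacking the transcription factor CHOP (gene Ddit3). Cells of each genotype were untreated or had received 2 µg/ml tunicamycin for 4 h or 8 h, and each of the 6 groups held 4 arrays lettered A to D. Tunicamycin blocks N-linked glycosylation, so that proteins misfold in the endoplasmic reticulum (ER). Whether the arrays of a group stand for separate cultures is not in the labels. The p-values therefore measure the spread among these samples only, which may be technical. No vehicle group and no time label for the untreated cells were given, so tunicamycin cannot be told apart from time in culture or handling. Neither the strain nor the number of embryos behind a culture was given.

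During ER stress the kinase PERK phosphorylates the α subunit of eIF2. Phosphorylated eIF2 holds back its exchange factor eIF2B, so that less initiator methionyl-tRNA reaches the 40S subunit and most translation slows, while a few mRNAs such as that of the transcription factor ATF4 are translated better. ATF4 and CHOP raise Ppp1r15a (GADD34), which directs a phosphatase to eIF2α and lets translation resume. Ribosomal protein mRNAs, and that of elongation factor eEF2, begin with a run of pyrimidines (the TOP sequence), through which mTOR controls how well they are translated. An array measures mRNA abundance and not translation.

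The trimmed means of the arrays were alike as deposited, while their medians ran from 48.2 to 72.6 and their highest signals from 5715.8 to 12405.1. The arrays wild type 4 h A and wild type 4 h C stood apart by their medians. The check of the genotype was Ddit3, whose mean signal in wild type cells was 299.6 ± 97.4 without treatment, 3652 ± 722 after 4 h and 4383 ± 524 after 8 h (SD, n = 4), against 14.7 ± 12.02, 31.6 ± 11.03 and 20.5 ± 14.4 in CHOP-/- cells. Of 10 fibroblast markers, 9 passed the filter. Of 6 leukocyte markers on the array, 3 passed (Cd68, Lyz2 and Csf1r), while Ptprc, Cd3e and Itgam had mean signals of 10.1, 8.09 and 22.3. The summed leukocyte signal ran from 218.7 to 2113.8, 227.5 to 2127.7 and 167.8 to 2009.1 over wild type arrays at 0, 4 and 8 h. Over CHOP-/- arrays it ran from 151.5 to 531.6, 161.9 to 447.3 and 102.7 to 384.6, so the genotypes overlapped at each time. Its part in the genotype comparisons was not tested. None of 4 endothelial markers, 1 of 4 epithelial markers, 1 of 4 neural markers and 5 of 5 striated muscle markers passed. Of the muscle markers, Actc1 had a mean signal of 1530.9. Myod1, Myog, Des and Tnnt2 had means of 55.3, 32.8, 67.1 and 37.7, nearer to the filter signal of 27.7. The summed neural signal, nearly all of it Tubb3, ran from 1044.3 to 1374.2 in wild type and from 1916.4 to 2179.5 in CHOP-/- arrays at 8 h, without overlap, and its part in the results was not tested. In bulk RNA, fewer cells of a type and less RNA per cell cannot be told apart.

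The starts of member genes are shown because the pyrimidine run is what the ribosomal protein genes and Eef2 are known to share, and the windows of Eif3d and Eif1ax, described below, are shown beside them. Sequences are from RefSeq (GRCm38.p6), which listed promoters for 62 of the 75 genes. Eif1a was not among the 62, so no window of it can be shown and the searches below do not cover it. Each window is 60 bases, 30 before the listed start and 30 from it on, in the direction of transcription, with the longest run of C and T after the start in capitals.
Rps18, chr17:33955636-33955695, minus strand: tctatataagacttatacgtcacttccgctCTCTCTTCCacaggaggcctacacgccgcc
Rps10, chr17:27635215-27635274, minus strand: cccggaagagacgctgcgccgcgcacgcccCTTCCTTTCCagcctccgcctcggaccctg
Rps27, chr3:90213619-90213678, minus strand: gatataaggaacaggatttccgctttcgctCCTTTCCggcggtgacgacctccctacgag
Rpl13a, chr7:45128716-45128775, minus strand: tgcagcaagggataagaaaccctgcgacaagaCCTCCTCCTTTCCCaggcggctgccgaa
Eif2s3x, chrX:94212622-94212681, minus strand: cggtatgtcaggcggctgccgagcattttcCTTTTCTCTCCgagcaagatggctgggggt
Eef2, chr10:81176601-81176660, plus strand: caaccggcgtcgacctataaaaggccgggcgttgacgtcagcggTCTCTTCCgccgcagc
Eif3d, chr15:77970795-77970854, minus strand: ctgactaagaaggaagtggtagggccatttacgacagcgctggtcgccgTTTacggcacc
Eif1ax, chrX:159372148-159372207, plus strand: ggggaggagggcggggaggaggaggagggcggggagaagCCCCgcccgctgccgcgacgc

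In these windows Rps18, Rps10, Rps27 and Eif2s3x begin with C at the first base and continue with a pyrimidine run of 9, 10, 7 and 11 bases. In Rpl13a the run of 14 bases begins at base 3, and in Eef2 the run of 8 bases at base 15. Eif3d and Eif1ax hold runs of 3 and 4 bases. A listed start need not be the capped base of the mRNA. Over the first 50 bases from the start, 16 of 35 ribosomal protein promoters (45.7%) held a C and T run of at least 8 bases, as did 11 of 43 initiation factor promoters (25.6%) and 17.4% of 32851 mouse promoters of the same length. A start at C followed by a run to at least 5 bases was listed for 5 of the 35 (14.3%) and for 2.51% of all promoters. The elements that ER stress factors are known to bind were searched on both strands of 300 bases (250 before and 50 after the start). The C/EBP-ATF element TGATGNAA, which CHOP and ATF4 bind, was present in 2 of 85 member promoters (Eef2k and Eif2s3x, 2.35%) and in 3.97% of all. The unfolded protein response element TGACGTGG was present in Eif3a (1.18%) against 0.676% of all. The ER stress element, CCAAT and CCACG with 9 bases between them, was present in 0 of 85 member promoters and 0.119% of all. No match says only that these letters were not in this window.

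Across the 6 groups the mRNA levels of ribosomal proteins lay closest together and those of the genes that build ribosomes furthest apart, among the 4 sets given here. The median gene of each set spanned, between its highest and lowest group mean, 0.13 on the log2 scale for 25 ribosomal proteins, 0.38 for 29 initiation factors, 0.53 for 7 elongation factor genes and 0.70 for 50 ribosome biogenesis genes, against 0.49 for all 5692 genes. The elongation factor value is that of Eef1b2, which was under the filter signal on 5 arrays. Eef2k (1.16), Eef1a2 (0.84, near the filter) and Eef1akmt1 (0.83) spanned more. Eef1d (0.40), Eef2 (0.20) and Eef1a1 (0.07) spanned less, so this median does not describe the elongation factors of high signal. The spread between arrays of a group was also lowest for ribosomal proteins: the median pooled SD was 0.11 for ribosomal proteins and 0.24 for initiation factors, against 0.27 for all genes. These are differences of log2(signal + 5.7) after quantile normalization, and no test between the sets was made. Quantile normalization gives the top ranks of every array the same values, and most ribosomal protein probe sets had signals near the top of each array, which by construction narrows both their spread and their changes.

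**Figure D1:**
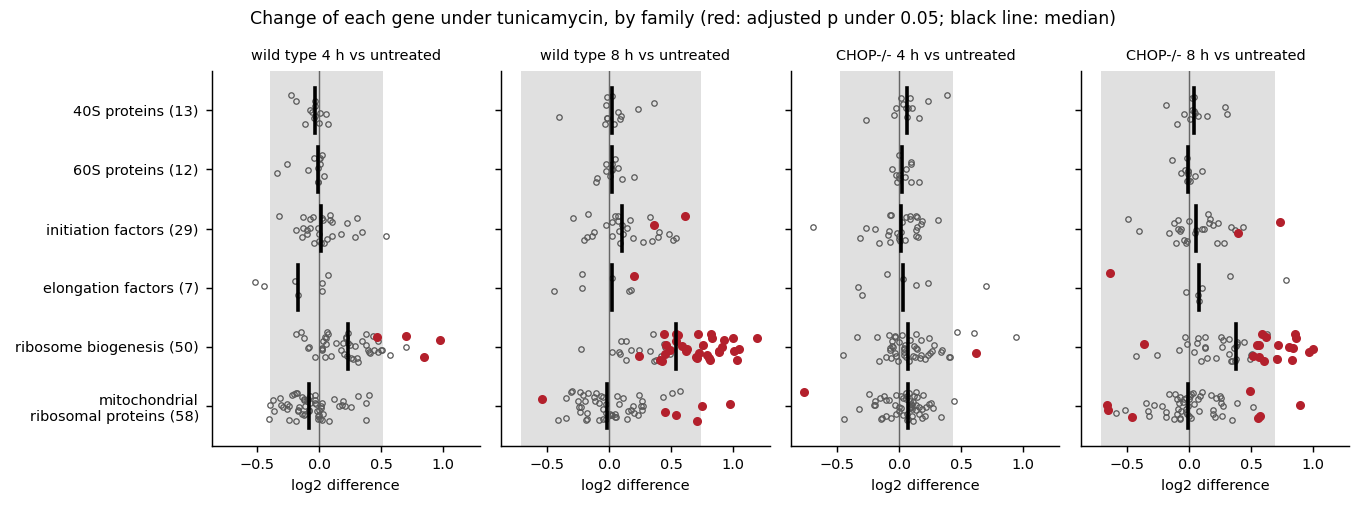
The log2 change of each tested gene (points) at 4 h and 8 h against untreated cells of the same genotype, by family. Called genes are in red, and a grey band marks the 5th to 95th percentile of all 5692 genes. The lower rows hold ribosome biogenesis genes and mitochondrial ribosomal proteins, which are not members. Proteins of the cytosolic ribosome crowd around 0, with no call in any panel. With the values as deposited their median at 8 h turns from 0.02 to -0.04 in wild type cells and goes from 0.00 to 0.17 in CHOP-/- cells.

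At 8 h of tunicamycin in wild type cells, 3 of 61 members were called and all were higher (Eif1a, Eif3d and Eef2), against 16.6% of all genes called (9.65% higher and 6.94% lower). In CHOP-/- cells at 8 h, Eif1a and Eif3d were higher and Eef1akmt1 was lower, 3 of 61 against 13.9% of all genes (7.27% higher and 6.64% lower). At 4 h no member was called in wild type cells (limma, 4 at an unadjusted p under 0.05), against 2.13% of all genes, nor in CHOP-/- cells (limma, 3 at an unadjusted p under 0.05), against 1.48%. A call needed an adjusted p under 0.05 from limma with Benjamini-Hochberg adjustment over the 5692 genes of a comparison. The normalized values of treated and untreated wild type arrays did not overlap for 2 of 61 members at 4 h (6.92% of all genes) and 6 at 8 h (20.6%). In CHOP-/- cells this held for 1 at 4 h (5.92%) and 6 at 8 h (18.5%). The 4 h and 8 h groups of a genotype were compared with the same untreated arrays. Same-letter arrays deviated together in wild type cells, and with the letter as a block within the compared groups, a fit added after the data were seen, 1 member was called at 4 h (3.39% of all genes) and 11 at 8 h (28.7% of all genes). The call at 4 h was Eif4a2. At 8 h the 8 added calls were Eif2s2, Eif2b4, Eif4a2, Eif5, Rps4l and Eef1akmt1, described below, Eif3b of the eIF3 complex (0.39, adjusted p = 0.0173 with the block and 0.137 without it) and Eif4e2 (0.48, adjusted p = 0.0439 with the block and 0.244 without it).

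Of the 13 tested 40S proteins, 0 were called at 8 h in either genotype (limma, 1 at an unadjusted p under 0.05 in each). Their median change at 8 h was 0.02 in wild type cells, with 7 above 0, and 0.04 in CHOP-/- cells, with 10 above 0. Rpsa, the laminin receptor and a constituent of the small subunit, had signals of 2579.5, 3138.3, 3044.8 and 2912.1 in untreated wild type arrays and 2773.0, 2591.7, 2838.8 and 3295.1 at 8 h. For CHOP-/- cells the signals of Rpsa were 2062.8, 2535.9, 2543.2 and 2360.1 untreated and 2618.4, 2397.7, 2502.5 and 2433.0 at 8 h. The treated and untreated arrays of Rpsa overlapped in both genotypes, with changes of -0.02 (95% interval -0.21 to 0.17) and 0.04 (-0.15 to 0.23).

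Rps24, the 40S protein with the highest mean normalized log2 value, changed by 0.02 (95% interval -0.11 to 0.15) at 8 h in wild type cells and by 0.01 (-0.13 to 0.14) in CHOP-/- cells. Its signals ran from 5061.0 to 9850.7 over the 24 arrays. Rps15, the 40S protein with the lowest normalized mean, had group means of 3.43 to 6.88 and was not tested. Rps14, also under the filter on all 24 arrays, is given because of its values: its signals at 8 h were 6.5, 15.5, 12.4 and 13.1 in wild type and 1.9, 1.5, 1.6 and 3.1 in CHOP-/- cells, without overlap. In a fit without the filter this difference was -1.19 (95% interval -1.89 to -0.49, adjusted p = 0.0632), which was not a call. Rps27 had the highest changes of the 40S set at 8 h and is given here because of its values. Its signals were 366.3, 320.9, 296.9 and 415.8 untreated and 446.3, 531.4, 417.2 and 422.6 at 8 h in wild type cells, so every treated array lay above every untreated array as deposited, although the normalized values overlapped. Its change was 0.36 (adjusted p = 0.0800) in wild type and 0.31 (adjusted p = 0.148) in CHOP-/- cells. Rps27 was called in wild type cells when arrays were centred on their medians (0.43, adjusted p = 0.0364), and in both genotypes with array weights (adjusted p = 0.0226 and 0.0388). Rps4l, a paralogue of the 40S protein gene Rps4x that was also picked out by its values, had a change of -0.41 in wild type cells at 8 h, which was a call only with the letter as a block (adjusted p = 0.0104). Its probe set is of a kind that can match several transcripts.

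Of the 12 tested 60S proteins, 0 were called at 8 h in either genotype (limma, 0 at an unadjusted p under 0.05 in both). Their changes lay between -0.11 and 0.20 in wild type cells and between -0.13 and 0.10 in CHOP-/- cells. Rplp0, a protein of the ribosomal stalk that is often used as a reference gene, had signals of 7650.1, 10401.0, 8638.0 and 9079.9 in untreated wild type arrays and 8505.0, 9525.7, 7193.2 and 10234.9 at 8 h. In CHOP-/- arrays Rplp0 had 5532.1, 8601.6, 8864.9 and 6235.2 untreated and 8529.9, 9113.4, 7570.1 and 8497.7 at 8 h. The groups overlapped, and the 7 comparisons between groups gave Rplp0 differences of -0.03 to 0.03, none with an interval beyond -0.12 or 0.13. Rpl41, the 60S protein with the highest normalized mean, changed by -0.03 (95% interval -0.11 to 0.06) and -0.01 (-0.09 to 0.07) at 8 h. Rpl32, the 60S protein with the lowest, had group means of 5.03 to 9.43 and was not tested.

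For both subunits together, the 95% interval of the change at 8 h lay wholly within 0.5 log2 units of 0 for 20 of 25 proteins (80.0%) in wild type cells and for 19 (76.0%) in CHOP-/- cells, against 27.2% and 28.4% of all genes. At 4 h this held for 21 and 20 of the 25, against 38.8% and 37.7% of all genes. The limit that quantile normalization sets applies to these intervals. The median change of the 25 at 8 h depended on the scaling: in wild type cells it was 0.02 after quantile normalization, -0.04 as deposited and 0.01 with arrays centred on their medians. In CHOP-/- cells it was 0.00, 0.17 with 22 of 25 above 0, and 0.26 with 23 of 25 above 0. The CHOP-/- median over all genes ran from -0.03 to 0.06 under 10 alternatives. Untreated CHOP-/- arrays A to D had median ribosomal protein deviations from their means of -0.49, 0.01, 0.03 and -0.22 as deposited. At 8 h these were 0.02, 0.02, -0.12 and -0.04. Only untreated arrays A and D lay below all 8 h arrays. The 25 genes share these arrays, so the counts above 0 are not separate observations. Another 38 probe sets whose gene table entry joined a ribosomal protein to other genes were left unnamed. Of the 33 tested among them, 1 was lower at 8 h in wild type cells, against 15.04% of all probe sets called, and the median change was 0.00.

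The share of the summed gene signal that the 33 ribosomal protein genes held averaged 3.84 ± 0.329% over untreated wild type arrays, 3.53 ± 0.549% over those of 4 h and 3.75 ± 0.395% over those of 8 h (SD, n = 4). The share in CHOP-/- cells was 3.17 ± 0.450%, 3.55 ± 0.373% and 3.49 ± 0.131%. The lowest shares were 2.60% in CHOP-/- untreated array A and 2.71% in wild type 4 h array A, and the untreated groups overlapped, with 3.37 to 4.14% in wild type and 2.60 to 3.54% in CHOP-/- cells. The median deviation of the ribosomal proteins from their own means was -0.49 in the first of these arrays and -0.44 in the second as deposited, and -0.10 and -0.12 after quantile normalization. Over the 24 arrays this deviation correlated with the deviation of the array median at r = -0.55 as deposited and r = -0.42 after normalization. Both quantities come from the same arrays and scaling, so the correlation is a description.

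**Figure D2:**
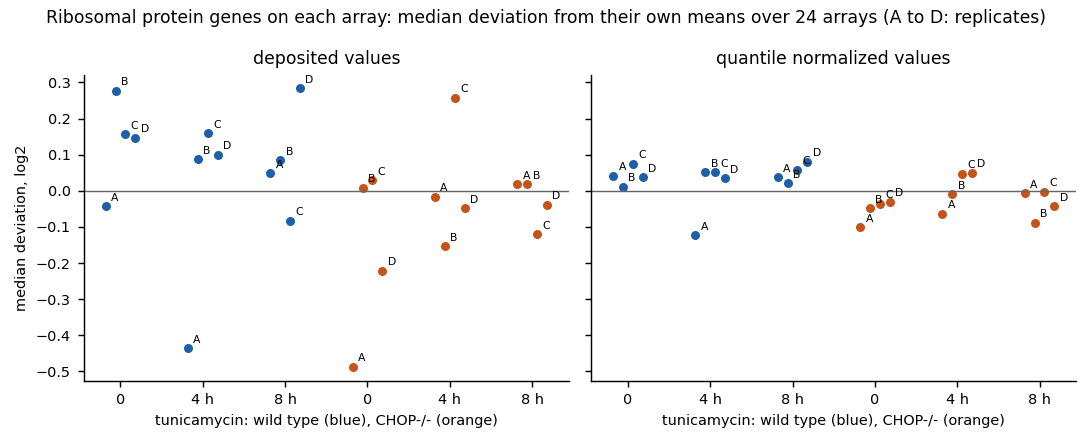
The median log2 deviation of the ribosomal proteins from their means over 24 arrays, per array, with values as deposited and after quantile normalization. The arrays CHOP-/- untreated A (-0.49) and wild type 4 h A (-0.44) lie lowest as deposited, and normalization brings both to between -0.13 and 0.

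Among initiation factors, 2 genes, Eif1a and Eif3d, were called higher in both genotypes at 8 h. In wild type cells 22 of the 29 tested had a change above 0, with a median of 0.10, and in CHOP-/- cells 17 had one, with a median of 0.06. The wild type median stayed above 0 under all 11 alternatives (0.08 to 0.18), and the CHOP-/- median under all 10 (0.05 to 0.14). Over all genes the medians ran from -0.02 to 0.03 in wild type and from -0.03 to 0.06 in CHOP-/- cells, and the CHOP-/- ranges overlap. The 29 genes share their arrays, so the counts above 0 are not separate observations. Of the 29, 2 (6.90%) passed the test in wild type cells, against 16.6% of all genes, and 7 had an unadjusted p under 0.05. The same numbers in CHOP-/- cells were 2 (6.90%, against 13.9%) and 4.

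Eif1a encodes eIF1A, which binds the decoding site of the 40S subunit and takes part in scanning and start codon choice. Its wild type signals were 1518.9, 1441.8, 1519.6 and 1473.0 untreated, 1790.8, 1834.7, 1835.7 and 1677.7 at 4 h, and 2314.8, 1930.2, 2106.4 and 2576.9 at 8 h. All wild type arrays at 4 h lay above all untreated arrays, and all at 8 h lay above all at 4 h. The CHOP-/- signals of Eif1a were 1272.4, 1617.0, 1156.7 and 1384.6 untreated, 1845.2, 1430.7, 1203.7 and 1486.7 at 4 h, and 2437.9, 2180.2, 1979.0 and 2378.1 at 8 h. There the 4 h arrays overlapped the untreated ones and the 8 h arrays lay above both. At 8 h Eif1a rose by 0.61 (SE 0.11, 95% interval 0.37 to 0.84, adjusted p = 0.000557), or 1.52-fold, in wild type cells. The rise in CHOP-/- cells was 0.73 (95% interval 0.50 to 0.97, adjusted p = 9.95e-05), or 1.66-fold. At 4 h the changes of 0.31 (adjusted p = 0.236) and 0.14 (adjusted p = 0.712) were not called. Both calls at 8 h were kept under every alternative that was run.

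A second probe set for Eif1a gave the same direction. Its wild type signals were 904.6, 866.8, 1120.8 and 913.1 untreated, 1291.8, 1255.7, 1575.6 and 1481.9 at 4 h, and 1597.0, 1590.6, 1848.8 and 1817.8 at 8 h. The CHOP-/- arrays gave 876.0, 950.1, 882.9 and 1035.7 untreated, 1301.5, 1361.4, 1014.0 and 1003.7 at 4 h, and 1838.1, 1682.5, 2072.4 and 1835.8 at 8 h. The 8 h arrays lay above all others of their genotype, and in wild type cells the 4 h arrays lay above the untreated arrays. In a fit over all probe sets past the filter, its changes of 0.85 (adjusted p = 8.15e-06) and 0.99 (adjusted p = 1.35e-06) at 8 h were called in both genotypes. Its change of 0.57 at 4 h (adjusted p = 0.00429) was called in wild type cells, and that of 0.33 in CHOP-/- cells was not (adjusted p = 0.184). With the mean of the probe sets standing for each gene, Eif1a was called in wild type cells at 4 h too (0.44, adjusted p = 0.0108).

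Eif1ax, the X-linked gene for the same factor, had values in the other direction. Its signals in wild type cells were 946.9, 1116.1, 1329.5 and 1156.2 untreated and 871.2, 887.8, 1095.4 and 1165.0 at 8 h, which overlapped. Those of CHOP-/- cells were 1060.6, 994.5, 1059.4 and 996.6 untreated and 700.6, 729.0, 811.2 and 860.3 at 8 h, where all treated arrays lay below all untreated ones. The changes of Eif1ax were -0.18 (95% interval -0.48 to 0.12) in wild type and -0.41 (-0.71 to -0.11, adjusted p = 0.0620) in CHOP-/- cells, and neither was a call. The latter became a call with the mean of the probe sets (-0.50, adjusted p = 0.0126), with the letter as a block over all arrays (adjusted p = 0.0144), with array weights (adjusted p = 0.0356), with the compared groups alone (adjusted p = 0.0357) and without the 2 arrays that stand apart (adjusted p = 0.0445). The second probe set of Eif1ax had signals of 264.7, 182.7, 263.9 and 260.2 untreated and 130.9, 160.3, 192.7 and 153.3 at 8 h in CHOP-/- cells, and its change of -0.59 (adjusted p = 0.0155) was called. The probe sets do not give how far they tell Eif1a and Eif1ax transcripts apart.

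**Figure D3:**
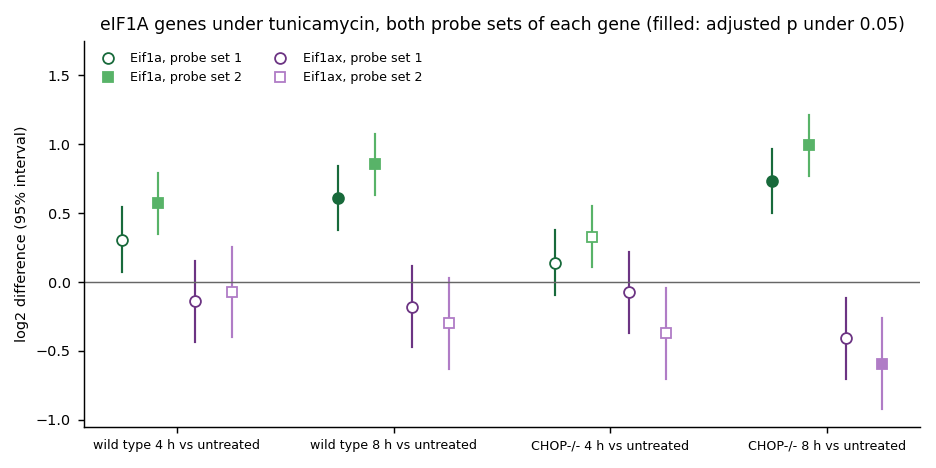
The log2 change from untreated cells for the probe sets of Eif1a and Eif1ax at 4 h and 8 h in both genotypes, with 95% intervals. Both Eif1a probe sets lie between 0.61 and 0.99 at 8 h, and both Eif1ax probe sets lie between -0.59 and -0.18.

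The eIF2 complex carries the initiator tRNA. Its tested subunit genes were Eif2s2 and Eif2s3x, and Eif2a and Eif2d were grouped with them by symbol only. None of these 4 genes was called at 4 h or 8 h (limma). In wild type cells at 8 h, 1 had an unadjusted p under 0.05. Eif2s2, which encodes the β subunit, had signals of 221.8, 206.7, 275.2 and 128.5 in untreated wild type arrays and 297.7, 279.5, 357.5 and 254.5 at 8 h. In CHOP-/- arrays they were 357.1, 301.5, 310.9 and 299.2 untreated and 392.3, 343.5, 412.2 and 340.2 at 8 h. The wild type arrays overlapped because of array C untreated and array D at 8 h, and the CHOP-/- arrays overlapped through array A untreated. Its wild type change was 0.54 (95% interval 0.13 to 0.94, adjusted p = 0.0615), which became a call with the letter as a block in the compared groups (adjusted p = 0.0201) and over all arrays (adjusted p = 0.0217). Eif2s3x, which encodes the γ subunit, changed by 0.09 (-0.16 to 0.34) and -0.07 (-0.32 to 0.19) at 8 h. Its Y-linked counterpart Eif2s3y had group means of 1.68 to 4.15 and was not tested.

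The exchange factor eIF2B was represented by 4 of its subunit genes, and none was called at 4 h or 8 h (limma, 1 at an unadjusted p under 0.05 in wild type cells at 8 h and 1 in CHOP-/- cells at 4 h). Eif2b4 (δ) had signals of 357.1, 385.8, 277.1 and 342.7 untreated and 478.6, 451.2, 371.5 and 448.1 at 8 h in wild type cells. Only array C at 8 h fell within the untreated range, and its change of 0.34 (adjusted p = 0.119) became a call with the letter as a block (adjusted p = 0.0358). Eif2b2 (β) had non-overlapping wild type groups at 8 h, with 683.7, 686.2, 629.7 and 661.7 untreated against 740.0, 698.2, 759.7 and 718.0, a change of 0.11 (95% interval -0.15 to 0.38) that was not a call. Eif2b1 (α) changed by 0.19 (adjusted p = 0.423) and 0.28 (adjusted p = 0.217) at 8 h in wild type and CHOP-/- cells. Eif2b5 (ε), the catalytic subunit, changed by 0.04 (-0.31 to 0.40) and -0.08 (-0.43 to 0.28).

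The scaffold eIF3, which binds the 40S subunit and recruits mRNA, had 10 tested genes, and 1 of them, Eif3d, passed the test. Eif3d encodes a subunit that can bind the cap of some mRNAs. Its signals in wild type cells were 1692.6, 1774.6, 1820.3 and 1843.9 untreated, 1842.2, 1732.8, 2305.6 and 2274.0 at 4 h, and 2334.2, 1992.0, 2457.2 and 2204.5 at 8 h. The CHOP-/- signals were 1622.6, 1708.1, 1857.7 and 1612.2 untreated, 1792.9, 1852.5, 2328.6 and 1951.6 at 4 h, and 2556.5, 2259.4, 2307.8 and 1951.6 at 8 h. All 8 h arrays lay above all untreated arrays in both genotypes, and the 4 h arrays spanned the gap. At 8 h Eif3d rose by 0.36 (SE 0.10, 95% interval 0.16 to 0.56, adjusted p = 0.0108), or 1.29-fold, in wild type cells and by 0.40 (0.20 to 0.60, adjusted p = 0.00659), or 1.32-fold, in CHOP-/- cells. Both calls were lost when arrays were centred on their medians (adjusted p = 0.167 and 0.0618) and were kept under the other alternatives. Eif3c, the initiation factor gene with the highest mean normalized log2 value (11.59, against 11.58 for Eif3l), changed by 0.08 (-0.12 to 0.28) and -0.04 (-0.24 to 0.16). The other 9 eIF3 genes were not called at either time (limma), and their changes with that of Eif3d ranged from -0.21 to 0.39 in wild type cells and from -0.50 to 0.40 in CHOP-/- cells at 8 h.

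**Figure D4:**
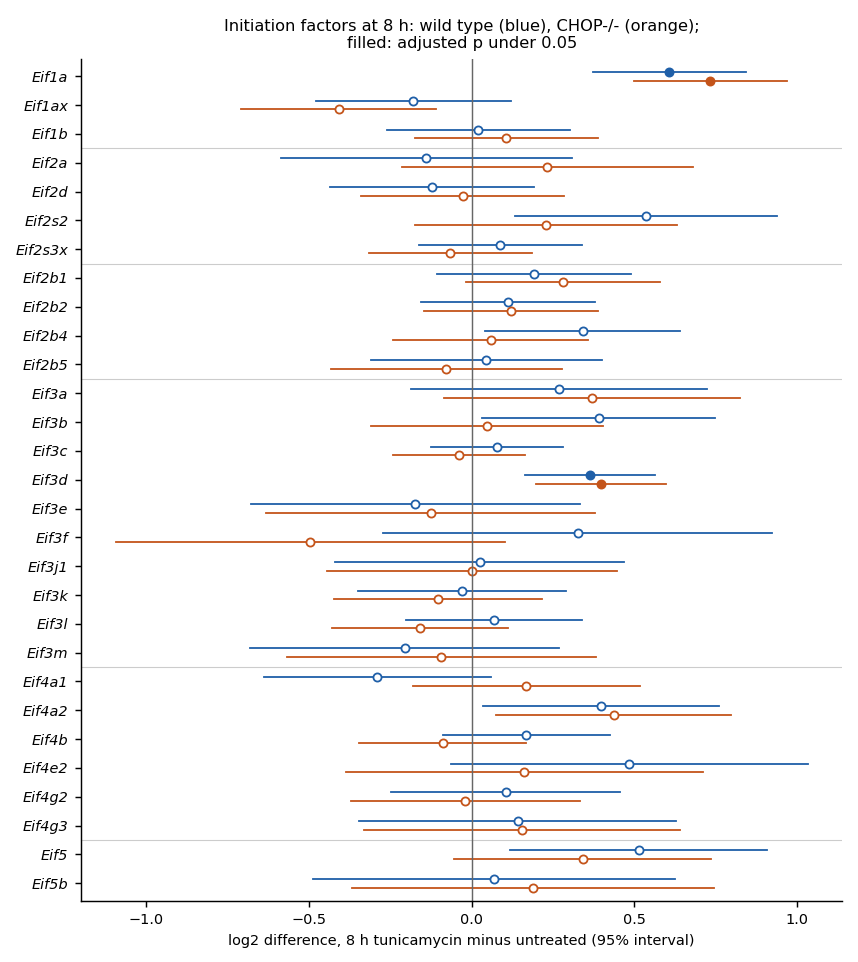
The log2 change at 8 h of tunicamycin for the 29 tested initiation factor genes in wild type and CHOP-/- cells, with 95% intervals. Eif1a (0.61 and 0.73) and Eif3d (0.36 and 0.40) lie above 0 in both genotypes, while Eif1ax lies at -0.18 and -0.41.

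The 6 tested genes with Eif4 symbols were Eif4a1, Eif4a2, Eif4b, Eif4e2, Eif4g2 and Eif4g3. They were grouped by symbol and not by membership of the cap-binding complex eIF4F, and include Eif4e2, a competitor of eIF4E described below. There were 0 calls at 4 h or 8 h in either genotype (limma). At an unadjusted p under 0.05 there was 1 in wild type cells at 4 h, and 1 in each genotype at 8 h. In each case this was Eif4a2, which encodes a form of the eIF4A helicase that unwinds the 5' ends of mRNAs. Its signals in wild type cells were 1665.9, 1715.5, 1670.0 and 1466.6 untreated, 2216.9, 2317.8, 2423.2 and 2280.8 at 4 h, and 2593.1, 1826.0, 2196.9 and 1915.2 at 8 h. The CHOP-/- arrays had 2046.8, 1455.7, 1651.9 and 1784.9 untreated, 2617.7, 2439.7, 1200.3 and 2084.0 at 4 h, and 2205.1, 2395.4, 2786.5 and 2243.7 at 8 h. All treated wild type arrays lay above all untreated ones, and in CHOP-/- cells at 4 h array C was the lowest of the 8 arrays. The changes were 0.54 (95% interval 0.18 to 0.90, adjusted p = 0.144) at 4 h and 0.40 (adjusted p = 0.135) at 8 h in wild type cells, and 0.18 and 0.44 (adjusted p = 0.105) in CHOP-/- cells. Both wild type changes became calls with the letter as a block (adjusted p = 0.00573 at 4 h and 0.00620 at 8 h). Eif4a1, the other form of the helicase, changed by -0.29 (95% interval -0.64 to 0.06) in wild type and 0.17 (-0.18 to 0.52) in CHOP-/- cells at 8 h. Eif4e, the cap-binding protein itself, had group means of 16.4 to 22.6 and was not tested, so nothing is known of it here.

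Eif5 encodes the protein that makes eIF2 hydrolyse its GTP at the start codon. Its signals were 703.9, 569.4, 1078.5 and 637.4 untreated and 993.8, 838.2, 1687.9 and 855.7 at 8 h in wild type cells. Array C was the highest in both groups, the groups overlapped through it, and each treated array lay above the untreated array of its letter. The change of 0.51 (95% interval 0.12 to 0.91, adjusted p = 0.0695) became a call with the letter as a block (adjusted p = 0.00250). The change of Eif5 in CHOP-/- cells was 0.34 (adjusted p = 0.266). Eif5a, a factor that relieves stalled ribosomes, had group means of 8.20 to 15.2 and was not tested.

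Of the 7 tested genes named as elongation factors, 2 were called, and neither call was stable. Eef2 moves the ribosome along the mRNA by a codon. Its wild type signals were 4202.1, 4664.8, 4396.0 and 4574.7 untreated and 4944.2, 5131.9, 4253.9 and 5251.8 at 8 h. Those of CHOP-/- arrays were 3401.1, 4708.6, 4933.3 and 3724.5 untreated and 4976.8, 4959.9, 4404.2 and 4393.6 at 8 h. As deposited, wild type 8 h array C lay inside the untreated range, and only the normalized groups were apart. Eef2 rose by 0.20 (SE 0.07, 95% interval 0.06 to 0.34, adjusted p = 0.0481), or 1.15-fold, in wild type cells, and changed by 0.08 (-0.06 to 0.22) in CHOP-/- cells. This call was lost in 13 of 19 alternatives, among them the values as deposited (adjusted p = 0.559) and the omission of any single wild type array, untreated or at 8 h (adjusted p from 0.0564 to 0.137).

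Eef1akmt1 matches the naming rule but encodes a methyltransferase that modifies eEF1A. Its signals in CHOP-/- cells were 281.3, 279.6, 196.7 and 311.4 untreated and 166.7, 134.9, 198.8 and 168.3 at 8 h. The wild type signals were 295.0, 250.5, 338.8 and 290.8 untreated and 202.6, 161.4, 275.6 and 257.7 at 8 h. As deposited, untreated array C overlapped the CHOP-/- 8 h group, and the wild type groups overlapped through arrays C and D at 8 h. Eef1akmt1 fell by 0.64 (95% interval -1.06 to -0.23, adjusted p = 0.0335) in CHOP-/- cells, and its wild type change was -0.45 (-0.87 to -0.03, adjusted p = 0.142). The CHOP-/- call was lost in 7 of 18 alternatives: without any single array among untreated A, B and D and 8 h A, B and D (adjusted p from 0.0616 to 0.0980), and with arrays centred on their medians (adjusted p = 0.119). The wild type change was a call with the letter as a block (adjusted p = 0.0254).

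Eef1a1, which delivers aminoacyl-tRNA, changed by 0.02 (95% interval -0.06 to 0.11) and 0.07 (-0.01 to 0.16) at 8 h, with signals from 5385.8 to 11985.7 over the 24 arrays. Eef1a2, its form in muscle and neurons, had group means of 26.1 to 51.0 near the filter, and its changes of -0.22 and 0.33 had intervals over 1 log2 unit wide. Eef1g, with group means of 0.65 to 2.52, was not tested. Eef2k, the kinase that inhibits eEF2, was picked out by its values: its CHOP-/- signals were 59.8, 45.8, 50.6 and 27.9 untreated and 83.4, 97.3, 44.0 and 91.1 at 8 h. Array C at 8 h lay inside the untreated range, and the change of 0.78 (adjusted p = 0.0522) was not called.

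**Figure D5:**
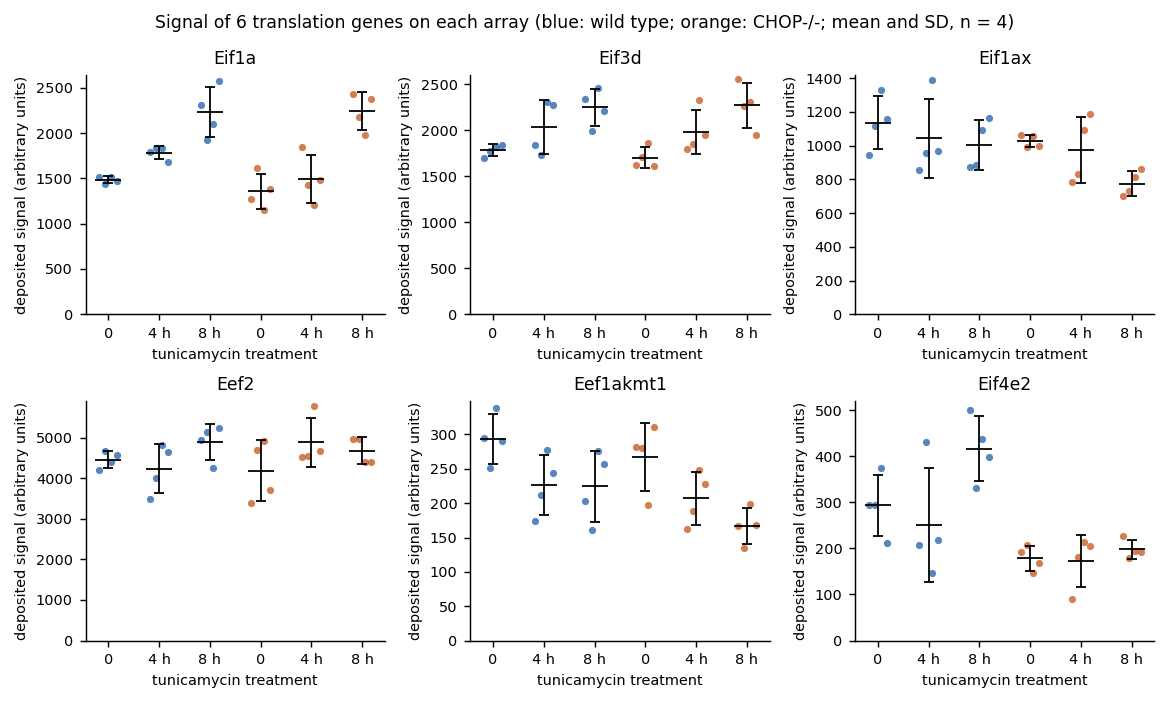
Deposited signal of Eif1a, Eif3d, Eif1ax, Eef2, Eef1akmt1 and Eif4e2 in each array (points) with the mean and SD of each group of 4. Eif1a and Eif3d arrays at 8 h lie above the untreated arrays in both genotypes, whereas those of Eef2 overlap. Eif4e2 separates the genotypes in untreated cells as well as at 8 h, but not at 4 h.

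In the comparison of CHOP-/- with wild type cells, no member was called in untreated cells (limma, 5 at an unadjusted p under 0.05), against 0.984% of all genes. At 4 h none was called (limma, 4 at an unadjusted p under 0.05), against 2.49% of all genes. At 8 h 1 member, Eif4e2, was lower, against 4.16% of all genes in either direction and 1.91% lower. The 4 h count rested on array CHOP-/- 4 h A: without it, Eef2 (0.25) was higher and Eif5b (-1.14), which joins the ribosomal subunits, was lower. The share of all genes called without that array is not given here, so these calls cannot be set beside it. The letters also paired the 8 h groups of both genotypes, and with the letter as a block in those groups 5 members were lower (11.6% of all genes): Eif4e2 (adjusted p = 0.00109), Rpl22 (-0.84, adjusted p = 0.00498), Eif1ax (-0.37, adjusted p = 0.0243), Rpl13a (-0.31, adjusted p = 0.0349) and Eif3l (-0.30, adjusted p = 0.0394).

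Eif4e2 encodes a cap-binding protein (4EHP) that competes with eIF4E and represses translation. Its signals at 8 h were 499.5, 331.9, 436.1 and 398.7 in wild type and 227.7, 179.3, 193.2 and 192.8 in CHOP-/- cells. In untreated cells they were 294.1, 293.3, 373.4 and 211.6 in wild type and 191.3, 207.1, 146.6 and 167.4 in CHOP-/- cells, and at 4 h 206.5, 431.1, 146.2 and 218.0 against 90.3, 181.2, 213.5 and 204.0. The genotypes did not overlap at 8 h or, as deposited, untreated, and overlapped at 4 h. The difference at 8 h was -1.03 (SE 0.27, 95% interval -1.58 to -0.48, adjusted p = 0.0265). It was lost in 7 of 19 alternatives: without wild type 8 h array A, C or D or CHOP-/- 8 h array B, C or D (adjusted p from 0.0566 to 0.0878), and with the mean of the probe sets (-0.60, adjusted p = 0.0578). The second probe set of Eif4e2 gave 143.8, 150.2, 71.7 and 135.6 in wild type and 100.6, 107.2, 120.6 and 105.3 in CHOP-/- cells at 8 h. These overlapped, and their difference was -0.16 (adjusted p = 0.780). The probe set that stood for the gene is of a kind that can match members of a gene family.

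Rpl22, picked out by its values, had wild type signals of 200.6, 167.3, 260.1 and 269.3 and CHOP-/- signals of 83.3, 97.1, 154.8 and 151.7 at 8 h. They did not overlap, and the difference of -0.84 (95% interval -1.37 to -0.31, adjusted p = 0.0621) was not called. Its second probe set, with signals of 26.7, 58.4, 46.7 and 25.2 against 32, 40.7, 62.8 and 56.2, differed by 0.28 (adjusted p = 0.811), so the probe sets had opposite signs. At 4 h of treatment that second probe set passed the test in wild type cells (1.37, adjusted p = 0.0473), where the first gave -0.34. The second probe set had low signals there, with 38.3, 10.4, 26.1 and 11.9 untreated and 77.7, 61.4, 35.6 and 73.8 at 4 h. These groups overlapped, and untreated arrays B, C and D lay under the filter signal of 27.7. Over the 23 members with more than 1 probe set, the probe sets differed in sign for 8 to 13 genes, depending on the comparison.

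In untreated cells Eif2s2 was 0.63 higher in CHOP-/- than in wild type cells (95% interval 0.22 to 1.03), with no overlap of the arrays given above, and this was not a call (adjusted p = 0.1801). Rpsa differed by -0.23 (adjusted p = 0.401) and Rps4l by -0.65 (adjusted p = 0.248), also without overlap. Rps4l became a call with the letter as a block over all arrays (adjusted p = 0.0496). Among members, 1 was higher and 3 were lower without overlap in untreated cells, against 5.27% of all genes in either direction. At 4 h the counts were 0 and 2 (Eif2b1 and Eif5), against 7.87%, and at 8 h 0 and 5, against 11.5%.

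The ribosomal proteins as a family had values below 0 in CHOP-/- against wild type cells, by an amount that turned on the scaling. In untreated cells the median was -0.06 with 21 of 25 below 0 after quantile normalization, and -0.33 as deposited or -0.38 with arrays centred on their medians, with 25 of 25 below 0 in both. At 8 h the median was -0.08 with 23 of 25 below 0, and -0.11 and -0.12 under those settings. At 4 h it was -0.02, and 0.01 as deposited. Over all genes the medians of these comparisons lay between -0.03 and 0.03 under the 3 scalings. None of the 25 was called in the genotype comparisons (limma, 2 at an unadjusted p under 0.05 untreated, 0 at 4 h and 2 at 8 h). With the letter as a block this no longer held, since Rpl22 (adjusted p = 0.00498) and Rpl13a (adjusted p = 0.0349) were lower at 8 h in the fit of the compared groups, and Rps4l (adjusted p = 0.0496) untreated in the fit over all arrays. Of the 33 tested probe sets that join a ribosomal protein to other genes, 1 was called lower in untreated CHOP-/- cells. This stood against 0.845% of all probe sets called, and the median of the 33 was -0.09. None of them was called at 4 h or 8 h. As deposited, the untreated arrays had median ribosomal protein deviations of -0.04, 0.28, 0.16 and 0.15 in wild type and -0.49, 0.01, 0.03 and -0.22 in CHOP-/- cells, so the genotypes overlapped and CHOP-/- arrays A and D were the lowest of the 8.

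The difference between the genotypes in their response to tunicamycin (the CHOP-/- change minus the wild type change) was called for 0 members at 4 h (limma, 1 at an unadjusted p under 0.05), against 0% of all genes, and for 0 at 8 h (limma, 0 at an unadjusted p under 0.05), against 0.0351%. For Eif1a at 8 h it was 0.13 (95% interval -0.21 to 0.46), and for Eif3d 0.03 (-0.25 to 0.32). For Eif1ax it was -0.23 (-0.65 to 0.19), for Eef2 -0.12 (-0.32 to 0.08) and for Eef1akmt1 -0.19 (-0.78 to 0.40). The highest of the named initiation factors was Eif4a1 with 0.46 (-0.04 to 0.95). The median response difference of the ribosomal proteins at 8 h was -0.02 after quantile normalization and turned to 0.22 as deposited and 0.26 with median centring.

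Many genes that build ribosomes rose where no ribosomal protein was called. Of 50 tested ribosome biogenesis genes, 32 rose and 0 fell at 8 h in wild type cells, with a median of 0.54 and 49 above 0, against 9.65% of all genes higher and 6.94% lower. The counts in CHOP-/- cells were 16 and 1, with a median of 0.38, against 7.27% and 6.64%. Under the alternatives 27 to 39 rose in wild type and 12 to 20 in CHOP-/- cells. Surf6, a nucleolar protein, had signals of 60.5, 63.1, 72.6 and 80.0 untreated and 160.2, 119.0, 155.9 and 146.8 at 8 h in wild type cells. It rose by 1.01 (adjusted p = 4.43e-05) there and by 0.84 (adjusted p = 0.000418) in CHOP-/- cells. Wdr43, a factor for pre-rRNA processing, had 389.9, 239.1, 286.1 and 362.3 untreated and 775.3, 559.8, 825.6 and 845.4 at 8 h in wild type cells, and rose by 1.19 (adjusted p = 4.43e-05). The treated arrays of both genes lay above the untreated arrays. Rrp9 (0.88, adjusted p = 6.58e-05) and Rrp1b (95% interval 0.66 to 1.34, adjusted p = 0.000142) also rose in wild type cells. In both genotypes Ltv1 (0.71 and 0.96), Nop56 (0.82 and 0.86) and Nmd3 (0.54 and 0.56) rose at 8 h. In CHOP-/- cells Nop10, of the pseudouridylation complex, fell by 0.37.

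At 4 h, 4 biogenesis genes rose in wild type cells, against 1.79% of all genes: Surf6 (0.84), Nmd3 (0.47), Wdr43 (0.70) and Myc (0.98), the transcription factor that drives many genes of this list. This count ran from 0 to 6 under the 11 alternatives. The only call in CHOP-/- cells was Surf6, which rose by 0.62 (adjusted p = 0.0382). Between the genotypes 0 of the 50 were called in untreated cells (limma, 3 at an unadjusted p under 0.05), with a median of -0.11. At 4 h Ncl (nucleolin, -0.61, adjusted p = 0.0318) was lower in CHOP-/- cells. At 8 h Imp3 (-0.81, adjusted p = 0.00032), Nop10 (-0.49), Fbl (fibrillarin, -0.58) and Ddx10 (-0.66) were lower, with a median of -0.30 and 46 of 50 below 0. The medians at 4 h and 8 h stayed below 0 under every scaling, and 1 to 14 genes were lower at 8 h across the alternatives, 12 of them called with the letter as a block. The response difference was called for 0 of 50 at 4 h and at 8 h (limma, 1 and 4 at an unadjusted p under 0.05), so a difference in response was not shown. The genotype and treatment comparisons share arrays.

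The regulators of eIF2 included genes that rose by over 2 on the log2 scale. Their list of 21 tested genes held kinases, phosphatase subunits, 4E-binding proteins and other regulators of translation. Of the 21, 6 rose and 1 fell at 8 h in wild type cells, against 9.65% and 6.94% of all genes. In CHOP-/- cells 4 rose and 1 fell, against 7.27% and 6.64%. The wild type rises included Eif6 (0.60), Akt1s1 (0.41) and Ddit4, which belong to the other regulators. The gene that fell in CHOP-/- cells was the 4E-binding protein gene Eif4ebp2 (-0.65, adjusted p = 0.0218). Under the alternatives 4 to 8 rose and 0 to 2 fell in wild type cells. Ppp1r15a had wild type signals of 286.2, 245.5, 383.0 and 261.3 untreated and 1232.3, 1373.3, 1237.6 and 1098.8 at 8 h, without overlap. It rose by 2.02 (adjusted p = 1.23e-07) in wild type and 1.45 (adjusted p = 1.86e-05) in CHOP-/- cells, and it was lower in CHOP-/- than in wild type cells at 4 h (-1.04, adjusted p = 0.00353) and 8 h (-0.96, adjusted p = 0.0046). Its response difference was not called at 4 h or 8 h. Dnajc3 (p58IPK, an inhibitor of PERK) rose by 2.24 and 2.42 at 8 h, and Eif2ak3 (PERK) by 1.42 and 1.54. Ppp1r15b, the constitutive partner of that phosphatase, fell by 0.66 in wild type cells, and Ddit4, an inhibitor of mTOR signalling, rose by 0.53 in wild type and 1.13 in CHOP-/- cells. At 4 h Ppp1r15a (1.74 and 1.09), Dnajc3 (1.15 and 0.97) and Ddit4 (0.71 and 0.89) rose in both genotypes, and Eif2ak3 (0.90) rose in wild type cells.

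Of 18 tested genes of termination, ribosome recycling, poly(A) binding and related steps, 4 rose at 8 h in wild type cells (22.2%, against 9.65% of all genes), and 2 to 6 rose under the alternatives. They were Pelo (0.95, adjusted p = 0.00461), Hbs1l (0.30) and Gspt2 (0.65), which act on stalled or terminating ribosomes, and the release factor Etf1 (0.38). Pelo was the only call in CHOP-/- cells, where it rose by 0.93 (adjusted p = 0.00599), and made up 5.56% of the list against 7.27% of all genes. Of 58 tested mitochondrial ribosomal proteins, 5 rose and 1 fell at 8 h in wild type cells, and 4 rose and 3 fell in CHOP-/- cells, with medians of -0.02 and -0.01. These are 10.3% and 12.1% of the list called, below the 16.6% and 13.9% of all genes. Mrps12 (0.97 and 0.89), Mrpl50 (0.71 and 0.57) and Mrps31 (0.74 and 0.56) rose in both, and Mrps21 (-0.54 and -0.66) fell in both. Mrpl18 was lower in CHOP-/- cells after treatment (-0.77 at 4 h and -0.66 at 8 h), and Mrps11 was lower in CHOP-/- than in wild type cells at 8 h (-0.69, adjusted p = 0.0483).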

How the data were processed

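Per the labels, the total RNA of 24 fibroblast samples was hybridised, each to its own array. The deposited values are probe set signals (unit: intensity). Judged from the values, the authors had scaled each array to a trimmed mean of 250.1 to 250.2 (2% removed at each end). The software used is not given in the sources. For arrays, their number limits the precision.

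Probe sets with 1 gene symbol were kept, and that of highest mean signal stood for its gene. A pseudocount of 5.7 was added, log2 values were quantile normalized, and genes with a mean above 5.06 (a signal of 27.7) were tested. A fold on this scale understates changes of low genes. limma 3.58.1 in R 4.3.3 fitted 6 group means over 24 arrays, with an intensity trend, for 9 comparisons. Checked on simulated data over 5692 genes with changes in wild type cells at 8 h against untreated, the fit recovered 30% of changes of 0.5 and 72% of changes of 1 (log2).

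Arrays of the same letter deviated together (every r above 0.1) for wild type untreated against 4 h (0.32 to 0.55) and 8 h (0.40 to 0.62) and between genotypes at 8 h (0.29 to 0.55), and in no other comparison made here. The pairing comes from these correlations, not from a stated batch. Alternatives were other pseudocounts (1 and 32), scalings, filters, probe set rules, array weights, the compared groups alone, the letter as a block and the omission of arrays.

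The text names members called in any comparison, fixed genes of each complex, the members of highest and lowest mean per family, other probe sets of called members, and up to 4 called genes of smallest adjusted p per pathway list and comparison. Eif6, Akt1s1 and Eif4ebp2 are named beyond this to complete the calls of their list. Other exceptions are marked as picked by their values. Members and lists were chosen with earlier results of these data known. Promoter windows are from RefSeq.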

Additional observations from a re-analysis of the deposited data

Results flagged for a closer look

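In 114 group values of 19 named members, the highest or lowest array stood far from the other 3 of its group in 4 cases, and chance alone marks about 1 in 20 groups. In wild type 4 h array A, Eef1a1 (6363.1) and Rplp0 (6224.9) were low. Eef2 was high in CHOP-/- 4 h array C (5793.1), and Eif4a1 was low in wild type 4 h array D (393.7).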

How the results depend on the processing

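None of the 7 member calls reversed under an alternative. Eif1a kept both calls at 8 h under all of them (changes of 0.55 to 0.73 in wild type and 0.67 to 0.86 in CHOP-/- cells). The number of members called in CHOP-/- cells at 8 h was 1 with median centring, 5 with the mean of all probe sets and 5 with array weights. Counts over all genes moved as well. Across the alternatives other than single left-out arrays, 358 to 530 genes were higher and 220 to 497 lower there. In wild type cells at 4 h the number of members was 1 with the mean of all probe sets and 1 with the compared groups alone. It was also 1 with the replicate block in the compared groups, which called 3.39% of all genes. Across the same alternatives 44 to 151 genes were higher and 9 to 51 lower. In wild type cells at 8 h the number of members was 11 with array weights and 11 with that block, which called 28.7% of all genes. There 509 to 853 genes were higher and 246 to 781 lower across these alternatives. Between genotypes at 8 h the number of members was 2 with array weights and 2 with the replicate block over all arrays. It was 5 with the block in the compared groups, which called 11.6% of all genes. Over all genes 75 to 356 were higher and 80 to 303 lower. Untreated, 1 member was called with the block over all arrays, and over all genes 12 to 56 were higher and 11 to 32 lower. Leaving out each array in turn gave 2 to 4 members at 8 h in either genotype, 0 to 2 between genotypes at 4 h, 0 to 1 at 8 h, and 0 in the other comparisons. The shares of all genes called with an array left out are not given here. The block over all arrays also ended the wild type call of Eef2 at 8 h (adjusted p = 0.0518). Every member whose call a block changed is named beside the results or here. For the 14 members under the filter, low signal limits what can be shown.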
